A study of Mus musculus with 6 samples.

Results

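Lysyl oxidases and the elastic fibre genes were followed as a group of 10 genes, chosen by name, with earlier results of these data known. The group holds Lox, Loxl1, Loxl2 and Loxl3 (lysyl oxidase and its relatives), Eln (elastin), Fbn1 (fibrillin-1), Fbln2 and Fbln5 (fibulins), Mfap5 (a microfibril-associated glycoprotein) and Emilin1 (an elastin interface protein). All 10 were found among the 27179 genes of the bulk count table and among the 30750 Ensembl genes of the single-cell tables. The study grew immature cardiomyocytes (imCMs) of neonatal C57BL/6 mouse hearts beside cardiac fibroblasts of neonatal (NF) or adult (AF) origin to ask how the age of the fibroblasts affects the cardiomyocytes. RNA was counted in bulk in 2 imCM-NF libraries and 2 imCM-AF libraries, and in single wells of an ICELL8 nanowell chip in 1 library labelled cardiomyocytes and 1 library labelled fibroblasts. No gene was deleted or added in any of these groups. The fibroblasts had been passaged in culture before use, the labels have the bulk cardiomyocytes parted from other cells by repeated centrifugation while the study's methods have them stained with a dye and sorted, and the ratio of fibroblasts to imCMs at plating was larger for AF than for NF. The labels do not say whether the 2 libraries of a group came from separate cultures, so the p-values measure the spread between these libraries, which may be technical.

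Elastic fibres let the heart and vessels stretch and recoil. They form when secreted tropoelastin settles on a scaffold of fibrillin microfibrils, with fibulins and emilin-1 helping to place it, and lysyl oxidases, which are copper enzymes, then oxidise lysines of elastin and collagen so that the chains become crosslinked. In the heart these genes are known mainly as products of fibroblasts and other mesenchymal cells.

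The lysyl oxidases are a gene family with a shared catalytic end, so the stretch of the transcript that codes for the copper site is shown for Loxl1, Loxl2 and Loxl3 to let their likeness be seen. Each line gives 123 bases of the mature transcript on the gene's strand, 5′ to 3′ (GENCODE, build GRCm38), with the 33 bases of the copper site in capitals and coding sequence on both sides.
Loxl1: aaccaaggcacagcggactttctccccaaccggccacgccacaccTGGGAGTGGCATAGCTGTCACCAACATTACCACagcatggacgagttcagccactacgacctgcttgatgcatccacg
Loxl2: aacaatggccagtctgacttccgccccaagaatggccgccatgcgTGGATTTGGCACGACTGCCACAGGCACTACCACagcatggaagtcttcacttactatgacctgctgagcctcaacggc
Loxl3: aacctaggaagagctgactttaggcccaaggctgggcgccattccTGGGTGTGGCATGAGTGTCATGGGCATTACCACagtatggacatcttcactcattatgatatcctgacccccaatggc
The Loxl1 stretch runs over exons 3 and 4 of 7 (chr9:58293675-58294426, minus strand). That of Loxl2 runs over exons 10 and 11 of 14 (chr14:69682271-69689082, plus strand), and that of Loxl3 over exons 10 and 11 of 14 as well (chr6:83049950-83050170, plus strand). Loxl2 and Loxl3 were the closest pair, with 88 of 123 bases alike (71.5%), whereas Loxl1 shared 74 bases with Loxl2 (60.2%) and 76 with Loxl3 (61.8%).

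No stretch of 35 bases in the annotated transcripts of any of the 4 lysyl oxidase genes occurred in another of the 10 genes or in Loxl4. Copies outside the family were found for Loxl2, in which 46.0% of such stretches occurred in another annotated gene, mainly the pseudogene Gm21451 on the same chromosome. The share was 19.9% for Fbn1 (Gm9913), 9.56% for Loxl3 (Htra2), 3.57% for Eln and 1.91% for Emilin1, and 0 for Lox, Loxl1, Fbln2, Fbln5 and Mfap5. Exons of Lox, Loxl2, Loxl3, Eln and Fbn1 overlap those of another annotated gene, and the counting is not stated to use strand, so the counts of these 5 genes carry that uncertainty.

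The 10 genes lie on 7 chromosomes of GRCm38. Eln (Entrez 13717) is at chr5:134702595-134747368, Fbn1 (14118) at chr2:125300594-125506485, Mfap5 (50530) at chr6:122513584-122529290 and Emilin1 (100952) at chr5:30913387-30921279. Fbln2 (14115) is at chr6:91212460-91272540 and Fbln5 (23876) at chr12:101746565-101819119. Lox (16948) is at chr18:52516060-52529867, Loxl1 (16949) at chr9:58287723-58313212, Loxl2 (94352) at chr14:69608692-69695834 and Loxl3 (16950) at chr6:83034205-83052566.

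Total counts of the bulk libraries lay between 9278909 and 12088577. Values are CPM, the counts of a gene per 1000000 counts of its library, scaled by TMM, a factor that makes libraries comparable. A gene was called where edgeR's quasi-likelihood test gave a Benjamini-Hochberg adjusted p under 0.05 and the log2 fold change exceeded 0.58 in size. Of 14041 genes tested, 11.1% were called, 6.15% higher and 4.99% lower in imCM-AF. All 10 elastic fibre and lysyl oxidase genes were tested and 8 were called, of which 7 were lower and 1 was higher in imCM-AF. The median log2 fold change was -0.85 over the 10 genes and 0.0011 over all tested genes. None of the 10 overlapped between the groups, as was also so for 66.0% of all tested genes.

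**Figure D1:**
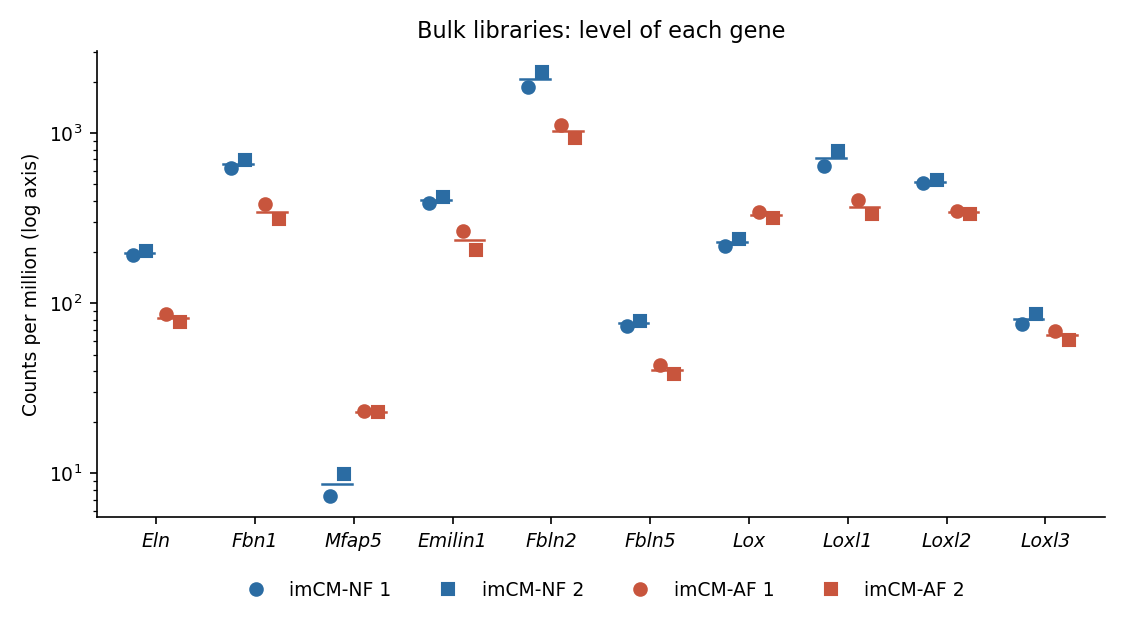
Level of each gene in the 4 bulk libraries, in CPM on a log axis; circles and squares mark replicates 1 and 2, blue imCM-NF, red imCM-AF, and a short line marks the mean of each group. In each gene the 2 red points lie on the same side of the 2 blue ones, above them for Mfap5 and Lox and below them for the other 8.

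Elastin showed the largest fall of the group. The imCM-NF libraries held 193.2 and 203.5 CPM of Eln and the imCM-AF libraries 86.5 and 77.1 CPM, so that both imCM-AF libraries lay below the lower imCM-NF library. edgeR gave a log2 difference of -1.28 ± 0.10 (SE, n = 2 per group) with an adjusted p of 1.6e-07, a level 2.43-fold lower.

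Of the microfibril genes, Fbn1, whose product builds the microfibril itself, measured 622.4 and 697.4 CPM with NFs but 381 and 311 CPM with AFs. Its log2 difference was -0.93 ± 0.13, with an adjusted p of 5.51e-05 by edgeR. Mfap5, which coats microfibrils, went the other way. Its imCM-NF libraries read 7.36 and 9.91 CPM and its imCM-AF libraries 23.3 and 22.9 CPM, which is 2.63-fold higher (log2 difference 1.39 ± 0.16, adjusted p 6.37e-06 by edgeR). Emilin1, which sits between elastin and microfibrils, was at 388.4 and 420.7 CPM with NFs and lower, at 264.5 and 204.5 CPM, with AFs. The log2 difference of -0.79 ± 0.12 had an adjusted p of 0.000204 by edgeR.

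Both fibulins fell. Fbln2, a fibulin of basement membranes and elastic fibres, reached 1860 and 2288 CPM with NFs and 1123 and 936.1 CPM with AFs (log2 difference -1.01 ± 0.16, adjusted p 0.000255 by edgeR). Fbln5, which binds tropoelastin and lysyl oxidase-like enzymes during fibre assembly, stood at 73.9 and 79.1 CPM against 43.2 and 38.3 CPM. By edgeR the log2 difference was -0.91 ± 0.10 at an adjusted p of 5.04e-06.

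The Fbln5 start region is shown out of 5 promoter windows at hand, which cover Fbn1, Emilin1, Fbln2 and Fbln5. It is the one wholly outside its own RefSeq gene and any GENCODE exon. It covers the 250 bases before a RefSeq start site (GRCm38.p6, chr12:101819120-101819369, minus strand), written 5′ to 3′ on the gene's strand, with matches to GGGCGG (the SP1 box, read here on the opposite strand) in capitals.
Fbln5: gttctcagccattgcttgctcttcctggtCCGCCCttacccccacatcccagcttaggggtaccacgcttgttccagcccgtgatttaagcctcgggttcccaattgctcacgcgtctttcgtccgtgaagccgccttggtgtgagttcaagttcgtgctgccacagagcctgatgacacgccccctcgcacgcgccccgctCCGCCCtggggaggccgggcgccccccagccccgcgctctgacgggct
The window had 65.2% G and C, against a median of 52.4% over 32851 promoter windows of the same length, and held 2 matches to GGGCGG. A match on either strand was found in 32.7% of all windows. The TATA box (TATAAA), which 12.4% of all windows held, was not found in it on either strand. Nor was the SMAD box (CAGAC), which was in 42.2% of windows, the TEAD box (GGAATG), in 12.6%, or the AP-1 box (TGANTCA), in 6.75%, so no other motif searched overlaps the printed matches. The second window of Fbln5 held 2 matches to the SMAD box and none to the other motifs. Bases just after the start site were found in a GENCODE transcript of the gene for Fbn1, Emilin1 and Fbln2. For neither window of Fbln5 were they found.

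The lysyl oxidases did not move together. Lox, the founding enzyme of the family, gave 218.6 and 239.8 CPM with NFs against 345.6 and 319.1 CPM with AFs. Both imCM-AF libraries were higher, and the log2 difference of 0.54 ± 0.11 passed the adjusted p (edgeR, 0.00143) but lay below the fold threshold, so Lox was not called. Loxl1, a relative tied to elastin, was lower with AFs, at 402.7 and 335.6 CPM, than with NFs, at 637.5 and 782.4 CPM (log2 difference -0.94 ± 0.13, adjusted p 7.99e-05 by edgeR). Loxl2, a relative tied to collagen IV, measured 506.5 and 532.3 CPM with NFs against 349.5 and 336.2 CPM with AFs. At -0.60 ± 0.11 (adjusted p 0.000833 by edgeR) its log2 difference lay close to the threshold. Loxl3 was not called: it read 75.6 and 86 CPM with NFs and 69.1 and 61.2 CPM with AFs, a log2 difference of -0.31 ± 0.10 (adjusted p 0.0296 by edgeR).

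Whether Lox and Loxl2 were called turned on single libraries. Leaving out imCM-NF replicate 2 gave Lox a log2 fold change of 0.61, leaving out imCM-AF replicate 2 gave 0.60, and Lox was then called. Without the same libraries that of Loxl2 was -0.56 in both cases, and it was -0.57 with upper-quartile scaling, so that Loxl2 was then no longer called.

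**Figure D2:**
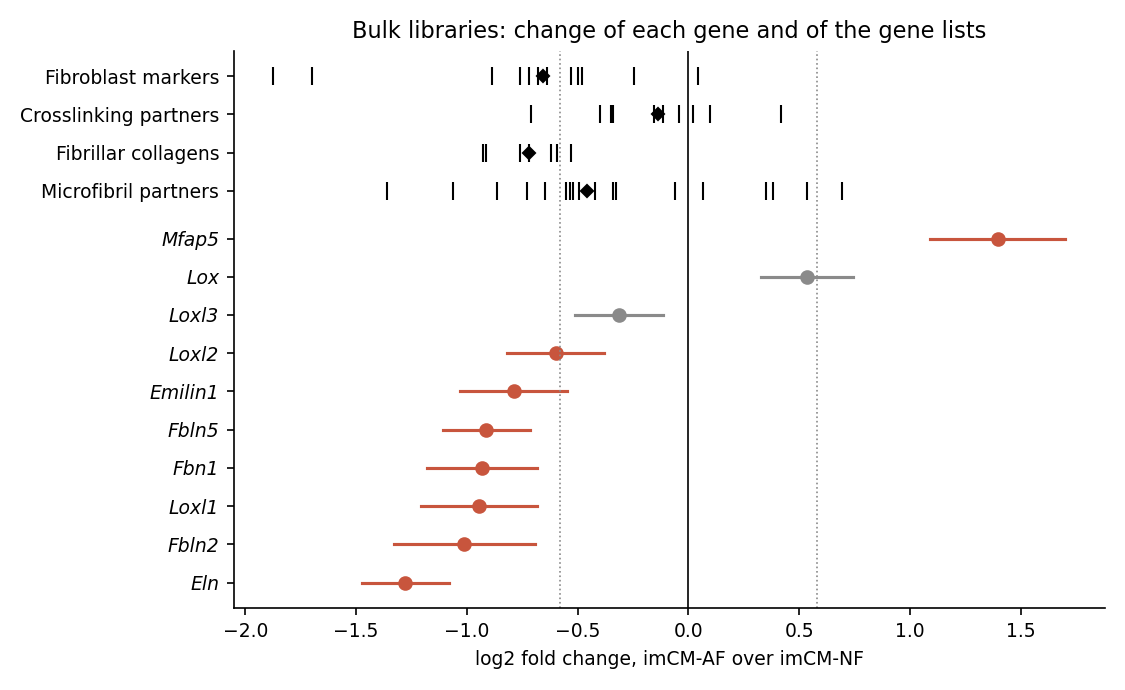
Log2 fold change of each gene, imCM-AF over imCM-NF, with its 95% interval (lower rows; red called, grey not called), and of each tested gene of 4 related lists (upper rows; ticks are genes, diamonds medians). Dotted lines mark the fold threshold of 0.58 either way. Mfap5 and Lox lie right of 0, the other 8 genes left of it, and the medians of all 4 lists lie left of 0.

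Per kilobase of exon, the scale on which genes can be ranked against each other, the mean level over the 4 libraries was highest for Fbln2, at 243.6 CPM per kilobase. It was 163.6 for Loxl1, 79.8 for Loxl2, 64.7 for Emilin1, 58.8 for Lox and 41.5 for Fbn1 on the same scale. Eln at 17.3, Loxl3 at 15.9, Fbln5 at 8.48 and Mfap5 at 4.42 CPM per kilobase formed the lower end. In each of the 4 libraries Fbln2 lay above Loxl1, Loxl1 above Loxl2 and Loxl2 above Emilin1. Emilin1 lay above Lox, Fbn1 above Lox, Eln above Loxl3 and Fbln5 above Mfap5 in both imCM-NF libraries, and each of these pairs had the opposite order in both imCM-AF libraries. In imCM-NF, Loxl1 reached 193.4 and 237.3 CPM per kilobase and Lox 45.7 and 50.2, while in imCM-AF Loxl1 stood at 122.1 and 101.8 and Lox at 72.3 and 66.8.

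Markers of the cell types in the cultures moved as well. The bulk libraries held 10 of 10 cardiomyocyte markers, with a summed level of 29996 to 41046 CPM with NFs against 39148 to 43257 CPM with AFs, and 2 of them were called higher. All 12 fibroblast markers were also present, summing to 16375 and 18011 CPM with NFs against 11473 and 9100 CPM with AFs. Of these 12, 7 were called lower and none higher, with a median log2 fold change of -0.66. The centrifugation and the sort named for these libraries would both remove fibroblasts. In bulk RNA, fewer fibroblasts and less RNA per fibroblast cannot be told apart, and the part of the fibroblast markers in the changes of the 10 genes was not tested.

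Set against the summed fibroblast markers of the same library, Lox was 1.29 and Mfap5 2.18 log2 units higher in imCM-AF. On that scale Eln was lower by -0.53 and Fbln2 by -0.26 log2 units, and Loxl1, Fbn1, Fbln5 and Emilin1 lay between -0.19 and -0.05. Loxl2 was at 0.15 and Loxl3 at 0.44. These are differences of library means with no test, and Col1a1, Col1a2 and Col3a1 make up most of the sum.

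Of the other cell types, 10 endothelial markers summed to 993.1 and 1030 CPM with NFs against 674.3 and 640.7 CPM with AFs, with 5 called lower. Smooth muscle markers summed to 2424 and 2592 CPM with NFs against 2141 and 1827 CPM with AFs, with 1 of 8 called lower, and mesothelial markers to 141.6 to 192.8 CPM over both groups, with 1 of 7 tested called lower. The 8 macrophage markers summed to between 59 and 84.3 CPM, 2 of the 7 tested were called lower, and C1qa was at 0 in imCM-AF replicate 1. The part of these cells in the changes was not tested either.

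Other genes of the pathway were taken from lists written for this purpose. Of 21 microfibril and elastic fibre partners 18 were tested, 5 were called lower and 1 higher, with a median log2 fold change of -0.46. Ltbp4, which carries latent TGF-beta to elastic fibres, gave 169 and 193.2 CPM with NFs against 77.6 and 63.9 CPM with AFs (log2 difference -1.36, adjusted p 2.39e-07 by edgeR). Adamtsl2 changed by -1.06, Tnxb (tenascin-X) by -0.87, Fbln1 by -0.73 and Adamts10 by -0.65 on the log2 scale, and all 4 were called. Efemp1 (fibulin-3) was called higher, with 19.1 and 17.9 CPM against 30.7 and 29.1 CPM (log2 difference 0.69, adjusted p 0.000459 by edgeR). Vcan (versican), the partner with the highest CPM before scaling by length, had a log2 fold change of -0.52 and was not called.

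Among 10 genes that act with the lysyl oxidases in crosslinking, 1 was called, and the median log2 fold change was -0.14. The called gene was Loxl4, the remaining relative of Lox, at 26.7 and 34 CPM with NFs and 20.2 and 17.3 CPM with AFs (log2 difference -0.71, adjusted p 0.00111 by edgeR). Fn1 (fibronectin), the most abundant, was at a log2 difference of -0.35 and was not called (adjusted p 0.188 by edgeR). Of the 7 fibrillar collagen genes, which are the other substrate of these enzymes, 6 were called lower and the median was -0.72. Col5a1 changed by -0.93, Col5a3 by -0.91, Col1a1 by -0.76, Col1a2 by -0.72, Col11a1 by -0.62 and Col5a2 by -0.59 on the log2 scale. Col1a1, Col1a2 and Col3a1 also stand among the fibroblast markers.

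Of 7 proteases that can cut elastin, Mmp14 (-0.92), Mmp12 (-0.62) and Mmp2 (-0.62, all log2 fold changes) were called lower, none was called higher, and the median was -0.57. Ctsl (cathepsin L), the most abundant of them, was at a log2 difference of -0.36 and was not called.

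The single-cell tables count unique molecular identifiers (UMIs), each standing for 1 captured transcript, in 2462 wells that carry a name other than a control. After filters on genes, alignment and UMIs, 2247 wells were kept, 1296 on the cardiomyocytes chip and 951 on the fibroblasts chip, with a median of 18238 and 27809 UMIs. Names of the wells are the authors' text: NFNCM1 to NFNCM3, AFNCM1 to AFNCM3, NCM0_1 and NCM0_2 on the cardiomyocytes chip, and NF1, NF2, AF1, AF2, NF0_1, NF0_2, AF0_1 and AF0_2 on the fibroblasts chip. The sources used here do not explain the 0 or the final numbers, and no GEO label gives these names a group, so levels are given side by side with no test. A level is again in CPM, here the share of a gene's UMIs in the sum of all UMIs without mitochondrial genes, and its exact Poisson 95% interval covers counting error only. The chips share 269 well barcodes, which are positions of the chip design.

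Clusters of wells were found with the 10 genes and their microfibril partners left out. By their markers, 758 wells were fibroblast-like, 626 cardiomyocyte-like, 118 endothelial-like and 38 macrophage-like, and the remaining wells were left unnamed. Of the 8 smooth muscle markers, 4 were also present in each fibroblast-like cluster. Of the unnamed clusters, 4 had low UMIs or mixed markers. The remaining one held 167 wells, all named AF0_1 or AF0_2, and was led by Upk1b, Asb5 and F3, with 10 of 12 fibroblast markers and 3 of 8 mesothelial markers present.

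Among the named classes, 9 of the 10 genes were highest in fibroblast-like wells. Where each well was instead classed by its own markers, which adds smooth muscle-like and mesothelial-like classes, 5 of the 10 were. Over all unnamed wells Lox (1310 CPM) and Mfap5 (112.3 CPM) stood above their level in fibroblast-like wells. Fbln2 reached 2125 CPM (2108 to 2142) in fibroblast-like wells, 682.3 in macrophage-like, 519.7 in endothelial-like and 82.7 (78.8 to 86.9) in cardiomyocyte-like wells. Lox reached 724.8 in fibroblast-like wells, 441 in macrophage-like, 163.1 in endothelial-like and 59.3 in cardiomyocyte-like wells. In fibroblast-like and cardiomyocyte-like wells Loxl2 stood at 355.9 and 28 CPM, Fbn1 at 272.4 and 14.4, and Loxl1 at 199.7 and 15.7. In macrophage-like and endothelial-like wells Loxl2 stood at 176.5 and 145.7 CPM, Fbn1 at 98.5 and 98.7, and Loxl1 at 136 and 53.3.

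The rarer genes were also higher in fibroblast-like than in cardiomyocyte-like wells. Fbln5 had 98.4 CPM in fibroblast-like and 7.92 in cardiomyocyte-like wells, Emilin1 69.9 and 4.75, Mfap5 63.3 and 5.26, and Loxl3 14.5 and 0.51. Apart from Eln, Emilin1 had the level in endothelial-like wells nearest to that in fibroblast-like wells, at 60.1 (52.8 to 68) against 69.9 (66.9 to 73) CPM in fibroblast-like wells. With wells thinned to 5000 UMIs, Fbln2 was seen in 97.2% of fibroblast-like wells (99.7% unthinned) and 20.7% of cardiomyocyte-like wells (39% unthinned), and Lox in 70.2% (85.4%) and 14.5% (29.2%), at median depths of 28253 and 26091 UMIs. Thinning left out 37 and 33 shallower wells.

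Doublets were not called, and the part of wells with more than 1 cell or of free RNA was not tested. The 5 negative control wells of the cardiomyocytes chip held no UMI of the 10 genes among 1465, and those of the fibroblasts chip held 3 of Lox, 3 of Loxl2 and 1 of Fbln2 among 3587.

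**Figure D3:**
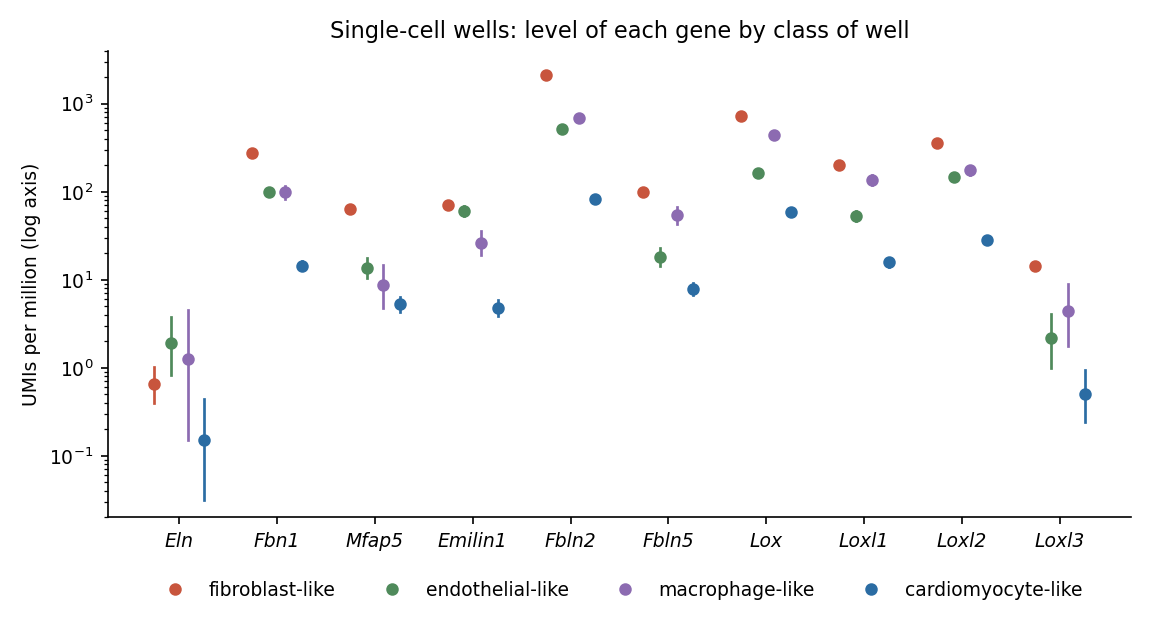
Level of each gene in the 4 named classes of wells, as CPM of UMIs on a log axis, with exact Poisson 95% intervals that cover counting error only. Fibroblast-like wells (red) are highest and cardiomyocyte-like wells (blue) lowest for each gene except Eln, for which all classes lie near or below 2 CPM.

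Eln was the exception. It was hardly seen in single wells, with 0 to 18 UMIs per well name and a level of at most 2.37 CPM, in NF0_2. In the bulk libraries the same gene stood at 77.1 to 203.5 CPM. Its highest class level was 1.93 CPM in endothelial-like wells (8 UMIs, all in 1 well), with 0.66 in fibroblast-like wells. No direction was therefore read for Eln in the single wells. Bulk counts and UMIs come from different kits and gene models, and the cause of this gap was not tested.

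Levels of Lox differed widely by well name. On the cardiomyocytes chip it had 140.9, 105.2 and 143.9 CPM in NFNCM1 to NFNCM3, 149.3, 223.9 and 179.3 in AFNCM1 to AFNCM3, and 140.6 and 318.4 in the NCM0 wells. On the fibroblasts chip it had 209.7 and 307.6 in the NF wells, 446.9 and 520.1 in the AF wells, 950.1 and 1301 in the NF0 wells, and 2344 and 2121 in the AF0 wells. Each AF name thus lay above each NF name of its kind, although the counting interval of AFNCM1 overlapped those of NFNCM1 and NFNCM3. The fibroblasts-chip order NF, AF, NF0, AF0 had no overlap between neighbours.

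**Figure D4:**
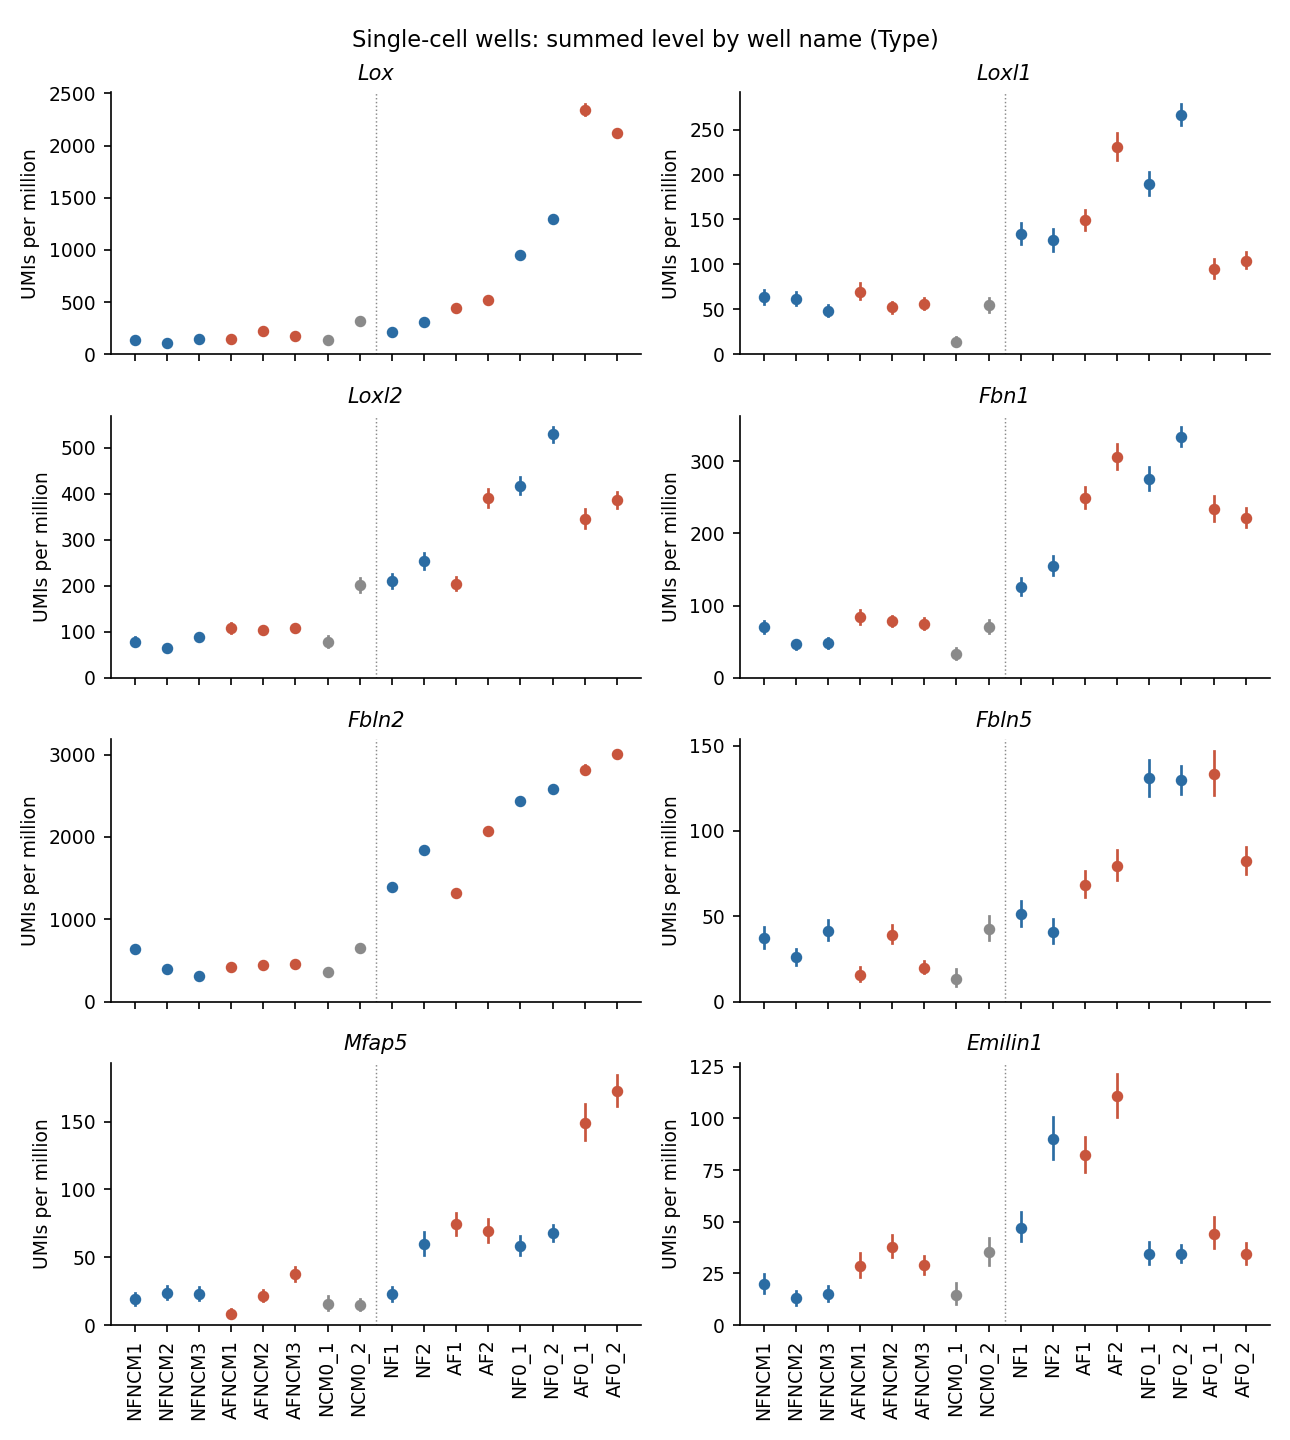
Summed level of 8 genes by well name, in CPM, with exact Poisson 95% intervals; blue marks names with neonatal fibroblasts, red those with adult fibroblasts, grey the NCM0 wells, and the dotted line parts the cardiomyocytes chip (left) from the fibroblasts chip (right). Lox climbs to 2344 and 2121 in the AF0 wells, while Loxl1 there lies at 94.9 and 104.2, below the NF0 wells.

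Of the 10 genes, 8 reached a mean of 20 CPM in each of the 3 settings, Eln and Loxl3 being the others. On the cardiomyocytes chip, 4 of these 8 genes (Lox, Loxl2, Fbn1, Emilin1) were higher in all AFNCM names than in all NFNCM names, where 14.7% of all genes at that level were, and none was lower throughout (8.29% of all genes). Loxl2 had 78.7, 65.1 and 88.5 CPM in the NFNCM wells and 109, 104.5 and 108.7 in the AFNCM wells. Fbn1 had 70.1, 46.4 and 47.8 against 84.3, 78.6 and 75.2. Emilin1 had 19.7, 12.9 and 15.1 against 28.6, 38 and 28.9, with no overlap between the levels of the groups. Counting intervals did overlap, for Loxl2 between NFNCM3 and AFNCM2, for Fbn1 between NFNCM1 and each AFNCM name, and for Emilin1 between NFNCM1 and AFNCM1.

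The makeup of the wells differed beside this. Fibroblast-like wells were 38, 24 and 18 of the kept NFNCM wells and 27, 32 and 36 of the AFNCM wells, that is 20.8%, 14.3% and 10.5% against 18.2%, 17.1% and 20%. Endothelial-like wells were 4, 2 and 6 against 19, 22 and 14. Cardiomyocyte-like wells, in which these genes were lower, were 46.4%, 56.5% and 54.7% of the NFNCM wells against 35.8%, 38.5% and 30.6% of the AFNCM wells. The part of this makeup in the levels of the 10 genes was not tested. The summed fibroblast markers ran from 863 to 1365 CPM in NFNCM and from 2266 to 3026 in AFNCM wells, opposite in direction to the bulk libraries. Cells were stained and sorted before they were loaded, and the part of the sort in these shares was not tested.

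Within fibroblast-like wells alone, where NFNCM3 had too few wells to be used, Lox and Fbn1 stayed higher in all AFNCM names and Loxl2 and Emilin1 overlapped. Lox had 368.6 and 426.2 CPM in NFNCM1 and NFNCM2 and 497.9, 667.8 and 508 in the AFNCM wells. Fbln2 there had 1595 and 1736 against 1367, 1223 and 1418, and Fbln5 had 116.1 and 125.7 against 59, 95.7 and 62.1. Both were lower in all AFNCM names. Counting intervals of Lox overlapped between NFNCM2 and both AFNCM1 and AFNCM3. Those of Fbn1 overlapped between NFNCM1 or NFNCM2 and each AFNCM name, and those of Fbln5 between AFNCM2 and both NFNCM1 and NFNCM2. For Fbln2 they did not overlap. In this setting 16.3% of all genes at that level were higher throughout and 14.0% lower throughout.

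On the fibroblasts chip, 5 of the 8 genes (Lox, Loxl1, Fbn1, Fbln5, Mfap5) were higher in AF1 and AF2 than in NF1 and NF2, where 28.7% of all genes were, and none was lower throughout (19.0% of all genes). Fbn1 had 126.4 and 154.8 CPM in the NF wells and 248.9 and 306 in the AF wells. Mfap5 had 22.6 and 59.6 against 74.3 and 69.4, so that NF2 lay close to AF2. Fbln2 overlapped, with 1394 and 1845 against 1315 and 2078. In fibroblast-like wells alone 4 of the 8 were higher throughout (27.4% of all genes) and Loxl1 overlapped, and none was lower throughout (18.5% of all genes). The summed fibroblast markers were 2630 and 3869 CPM in the NF wells and 7186 and 11172 in the AF wells.

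In the wells whose names carry a 0, genes of the group at a mean of 20 CPM or more went both ways. Higher in both AF0 names than in both NF0 names were 3 (Lox, Mfap5 and Fbln2), where 34.1% of all genes at that level were. Another 3 (Loxl1, Loxl2 and Fbn1) were lower in both, where 26.3% of all genes were, and 2 (Fbln5 and Emilin1) overlapped. Whether these counts differ from the shares of all genes was not tested. Mfap5 had 58.5 and 68 CPM in the NF0 wells and 149.3 and 172.8 in the AF0 wells. Loxl1 went the other way, with 189.7 and 266.5 against 94.9 and 104.2. Fbn1 had 275.7 and 333.7 against 234 and 222, a smaller gap. The AF0 wells formed a cluster of their own, with summed mesothelial markers of 341.9 and 403.2 CPM against 59.4 and 78.9 in the NF0 wells, whereas summed fibroblast markers were at 3650 and 3731 CPM against 4004 and 4938. Endothelial markers were also higher, at 601.5 and 371.3 CPM against 91.5 and 114.5. Cardiomyocyte markers (385.2 and 178 CPM against 5095 and 5039), macrophage markers (201.5 and 56 against 505 and 937.9) and smooth muscle markers (2718 and 3455 against 3465 and 4076) were lower in the AF0 wells. The part of these differences in the levels of the 10 genes was not tested.

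**Figure D5:**
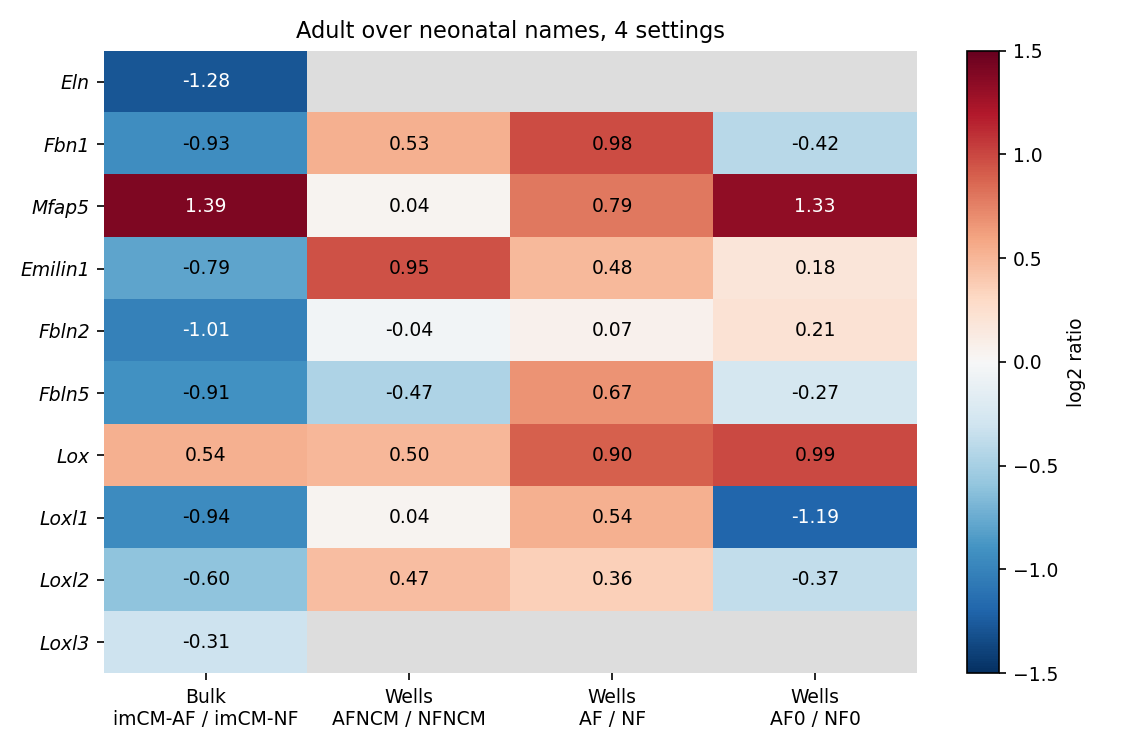
Log2 ratio of adult over neonatal names for each gene in the bulk libraries (edgeR log2 fold change) and in 3 settings of single wells. In the wells it is the log2 ratio of mean CPM plus 1, with all kept wells used and no test. Grey cells are genes under 20 CPM. Lox is above 0 in all 4 columns and Mfap5 too, at 0.04 in the AFNCM column, whereas Fbn1 is -0.93 in bulk and 0.53 and 0.98 in the AFNCM and AF columns.

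Set side by side with all kept wells used, Lox was higher with adult fibroblasts in all 4 settings. Levels of names or libraries overlapped in none of them, although some counting intervals did. In cardiomyocyte-like wells alone the levels of Lox overlapped on the cardiomyocytes chip. Lox there had 9.87, 15.9 and 88.1 CPM in NFNCM1 to NFNCM3 against 21.5, 53.3 and 45 in AFNCM1 to AFNCM3. Mfap5 was higher in bulk, in the AF wells and in the AF0 wells, and overlapped in the AFNCM wells. In fibroblast-like wells alone it overlapped there too, with a log2 ratio of -0.97 on the scale of CPM plus 1. Its levels were 57.2 and 119.1 CPM in NFNCM1 and NFNCM2 against 19.2, 62.9 and 51.4 in AFNCM1 to AFNCM3. Fbn1, Loxl2 and Emilin1 were lower in the imCM-AF libraries but higher in the AFNCM wells, a difference that was not tested. Genes whose level over the 16 well names was among the most like that of Lox were Ddb1 (Pearson r 0.96) and Plod2 (0.96), a lysyl hydroxylase of collagen, among 6090 genes at a mean of 20 CPM or more; the names share 2 libraries and differ in depth, so these are descriptions. For Eln the closest were Rnh1 (0.79), Rps19bp1 (0.79) and Otud5 (0.76), on counts of at most 18 UMIs per name.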

How the data were processed

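Bulk files, as deposited by the authors, hold unnormalised counts of reads for each gene. Per the study's methods, reads were aligned to mm10 with subread and uniquely placed reads were assigned to RefSeq genes by featureCounts. The submitters' processing notes name STAR 2.5.2b and Subread 1.4.6-p1. For the single wells the authors deposited UMI counts per Ensembl gene (STAR, featureCounts) with a report per well. Files of the authors' own comparisons were not used.

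Genes with a CPM over 1 in at least 2 libraries were kept in place of the study's RPKM filter. Symbols were missing for 1904 identifiers (3.52% of counts). edgeR 4.0.16 (R 4.3.3, TMM, quasi-likelihood, group as the only term) replaced the study's limma, and the study's thresholds were used. On simulated data with 200 of 14041 genes changed by 1.5 on the log2 scale, 192 were recovered with 1 false call for this comparison. Libraries of a group differed by more than counting noise (chi-square per degree of freedom 9.12 and 8.94). Same-numbered libraries did not deviate together (correlation -0.131).

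A well needed 500 genes or more, over 50% of its read pairs aligned, UMIs within 2 SD of the mean and no more than 1000000 UMIs. Clustering used scanpy 1.11.5 (2000 variable genes, 10 components, 30 neighbours, Leiden resolution 1). A marker counted as present in a cluster where at least 20% of wells held it at 25% or more of its highest cluster level. A class needed 3 markers, 50% of its list and a lead of 25 percentage points. This naming rule was set after the clusters had been seen.

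The 10 genes and the gene lists were chosen with earlier results of these data known. Genes named are the 10, each called gene of the lists and the gene of each list with the highest mean CPM, and, for Lox and Eln, the 3 genes of the most similar level over well names, of which 1 is not reported here. Exon lengths and overlaps came from GENCODE vM21. Promoters came from a RefSeq table (GRCm38.p6) that held windows for 4 of the 10 genes, and no protein sequence was used here. Alternatives are given in the closing section.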

Additional observations from a re-analysis of the deposited data

Results flagged for a closer look

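Several genes moved in opposite directions between settings, with no overlap of levels on either side, and the differences were not tested. Values are log2 ratios of adult over neonatal, in bulk as fitted and in wells on the scale of CPM plus 1. Fbn1 was at -0.93 in bulk and 0.53 in the AFNCM wells (difference 1.46) or 0.98 in the AF wells (difference 1.91), and the AF0 wells at -0.42 differed from the AFNCM wells by -0.94 and from the AF wells by -1.39. Loxl1 was at -0.94 in bulk and 0.54 in the AF wells (difference 1.48), with -1.19 in the AF0 wells (difference from the AF wells -1.73). Loxl2 was at -0.60 in bulk and 0.47 in the AFNCM wells (difference 1.07), with -0.37 in the AF0 wells (difference from the AFNCM wells -0.84). Emilin1 was at -0.79 in bulk and 0.95 in the AFNCM wells (difference 1.74), Fbln5 at -0.91 in bulk and 0.67 in the AF wells (difference 1.58), and Fbln2 at -1.01 in bulk and 0.21 in the AF0 wells (difference 1.23). The summed fibroblast markers also lay lower in imCM-AF than in imCM-NF but higher in the AFNCM and AF wells than in the NFNCM and NF wells, and their part in these differences was not tested.

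The 5 positive control wells of the fibroblasts chip, which entered no comparison, held 25 UMIs of Fbln2, 9 of Lox, 4 of Loxl1, 4 of Fbn1, 2 of Loxl2 and 1 of Fbln5 among 49439. In the negative control wells of that chip Lox and Loxl2 had 3 UMIs each and Fbln2 1 among 3587, and the other 7 genes had 0.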

How the results depend on the processing

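All 10 bulk fold changes kept their sign under each of 13 alternatives, and 125 of 130 such values kept the call or its absence, the exceptions being those of Lox and Loxl2 given in the report. The adjusted p of Loxl3, which was not called in any of them, ran from 0.000943 to 0.345 and was over 0.05 in 5. The number of genes called was 1564, and it became 3789 with the adjusted p alone and 565 with a log2 threshold of 1. With that threshold 3 of the 10 genes were called (Eln, Fbln2, Mfap5). Leaving out a library gave 879 to 1929 called genes and 8 of the 10 genes each time, the lone sample being assumed to vary like the other group. Omitting imCM-NF replicate 2 gave the lowest, 879, and omitting imCM-AF replicate 2 gave 988. The replicate block gave 1430 called genes and 8 of the 10, with no call changed among the 10, and the crossed pairing, chosen after seeing the data, gave 1668 and 8. With each well classed by its own markers, 5 of the 10 genes were highest in fibroblast-like wells. Of the single-well levels by name, 300 of 590 moved by more than their counting interval. Their ratios to the reported levels were 0.658 to 1.59 with no filter on wells, 0.543 to 1.70 with a mean over wells, 0.760 to 0.940 with mitochondrial genes in the total, and 0.941 to 5.0 in fibroblast-like wells alone. By class the ratios were 0.709 to 3.85 at Leiden resolution 0.5 and 0.717 to 3.90 by each well's markers. Counts of genes higher or lower in all names stayed within 1.5 times under the first 3 of these, while fibroblast-like wells alone, chosen after seeing the data, took AFNCM against NFNCM from 4 higher and 0 lower to 2 higher and 2 lower. Limits: 2 libraries per group, well names without labels, and Eln and Loxl3 near the detection limit of the wells.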
